A study of Homo sapiens with 33 samples.

Results

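Late S was compared with early S in HepG2, an established human hepatocellular carcinoma line that still makes many liver proteins. Late S was the 4 RNA libraries of the sorted fractions S3 and S4, and early S was the 4 RNA libraries of the sorted fractions S1 and S2, with replicates 2 and 3 of each fraction. These 8 libraries were taken by their labels from 15 RNA libraries among the 33 samples of the series. That rule uses no measured value, but the comparison and its members were chosen with earlier results of these data known. The series also holds Repli-seq, a sequencing readout of when each stretch of DNA is copied. The labels give no genotype, treatment or time for any fraction, so the sort is the only difference they name between late S and early S. The numbers S1 to S4 are read here as the order of the sort through S phase. The sources used here do not give the sort gates. All libraries of both groups came from the same line, were labelled as nuclear RNA and were made with a low-input kit for stranded total RNA, which also captures RNA without a poly(A) tail. The labels name no separate cultures for the replicate numbers. A p-value here reflects the spread among these 8 libraries after the shift between replicate numbers is taken out. That spread includes the steps from S1 to S2 and from S3 to S4, and the rest of it may be technical. An SD with n = 4 likewise spans both fractions and both replicate numbers of its group.

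Cells pass from the cyclin E stage at the start of S phase, through the copying of DNA, towards mitosis. Genes that start replication are switched on by E2F factors around the G1/S border, histone genes are read most while DNA is copied, and genes for the spindle, the kinetochore and mitotic entry are held back by the DREAM complex and then switched on by B-MYB and FOXM1 as cells near mitosis. Many of the last group carry a short promoter element called CHR, often beside CCAAT boxes. In bulk RNA of sorted cells, fewer cells of a kind and less RNA per cell cannot be told apart.

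The libraries held between 6128803 and 18484584 recovered reads in late S and between 7399950 and 9309288 in early S, and S4 replicate 3 was the deepest. Of 19316 protein-coding genes, 10650 had a mean of at least 5 TPM (a length-corrected share of all transcripts, with protein-coding genes rescaled here to the same sum in each library) and were tested. Hepatocyte markers matched the label: 9 of 10 had a mean of at least 5 TPM, and their summed level was 27400 to 49600 TPM in late S and 32900 to 56100 TPM in early S. Fibroblast markers summed to 14.5 to 22.0 TPM in late S and 10 to 25.9 TPM in early S, with 1 of 8 (PDGFRB) at a mean of at least 5 TPM. Endothelial markers summed to 10.3 to 16.7 TPM in late S and 9.34 to 17.7 TPM in early S, with 0 of 7 at that level. Leukocyte markers summed to 1270 to 2400 TPM in late S and 1390 to 2360 TPM in early S, with 2 of 9 (LYZ and CD14) at that level. No marker of these lists was at 0 in all 8 libraries.

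One class of RNA moved with the groups and with the replicate number. The 13 mRNAs encoded by mitochondrial DNA took 21.7% and 20.3% of the protein-coding TPM in S3 and S4 of replicate 2 and 7.28% and 6.02% in S3 and S4 of replicate 3, against 30.1% and 29.7% in S1 and S2 of replicate 2 and 20.5% and 12.2% in S1 and S2 of replicate 3. Within each replicate number both late S libraries lay below both early S libraries. All levels in a library share 1 sum, so a lower share of some genes raises the others. The median of all 10650 genes was 0.22 higher in late S on the log2(TPM + 1) scale. Size factors from the median ratio of genes brought that median to -0.01. Differences are therefore given beside the median of all genes and with equal-sum scaling unless stated.

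The comparison asks which transcripts change while S phase runs from its first to its second part. With limma on log2(TPM + 1), the replicate number as a block and p-values adjusted by Benjamini-Hochberg, 1173 genes (11.0% of 10650) were higher in late S and 78 (0.732%) were lower at an adjusted p below 0.05. With median-ratio size factors the split turned to 52 higher (0.488%) and 90 lower (0.845%), and on the recovered read counts with limma's voom to 188 higher (1.77%) and 344 lower (3.23%). All 52 and all 188 were among the 1173, 63 of the 90 and 75 of the 344 were among the 78, and 46 higher and 61 lower genes passed in all 3 fits, with 0 genes called in opposite directions. With all 12 sorted libraries, which adds G1 and G2 to the estimate of the spread, 1981 were higher (18.6%) and 115 lower (1.08%), 19.7% in all. The 46 and 61 genes were set apart after their values were seen and serve as a description. The 3 fits use the same libraries, and the other 2 lower the median of all genes from 0.22 to -0.01. The nesting of the rises and the lack of opposite calls are therefore no separate support.

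The calls rest on the replicate term and on each library. Without the replicate term 0 genes passed, although 813 had an unadjusted p under 0.05. A share of about 0.05 of the genes tested would do so if none differed. Leaving out S4 replicate 2 left 51 higher and 4 lower, S4 replicate 3 left 90 and 8, S1 replicate 3 left 100 and 14, S3 replicate 2 left 206 and 25, S3 replicate 3 left 377 and 29, S2 replicate 2 left 383 and 24, and S1 replicate 2 left 728 and 54. Leaving out S2 replicate 3 gave 2360 higher and 130 lower. Of the 46 genes higher in all 3 fits, 39 passed in each of the 8 fits that left out 1 library, and all 46 kept their direction. Of the 61 lower, 4 passed in each of these fits and all 61 kept their direction.

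The genes were called from these same 8 libraries, which selects for agreement of the replicate numbers and for groups without overlap. The counts that follow are a description and no separate support. All 1173 higher and all 78 lower genes had the same direction in both replicate numbers. The 4 late S libraries lay above the 4 early S libraries for 306 of the 1173, against 552 of all 10650 genes (5.18%), and below them for 14 of the 78, against 36 of all genes (0.338%). The median difference of the genes called higher was 0.54 and that of the genes called lower was -0.60 on the log2 scale, and 72 and 6 of them changed by at least 1 log2 unit. Over all genes tested, the difference in replicate 2 and the difference in replicate 3 correlated with Pearson r = 0.411, a description across genes, which are not independent and share their fraction labels.

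**Figure D1:**
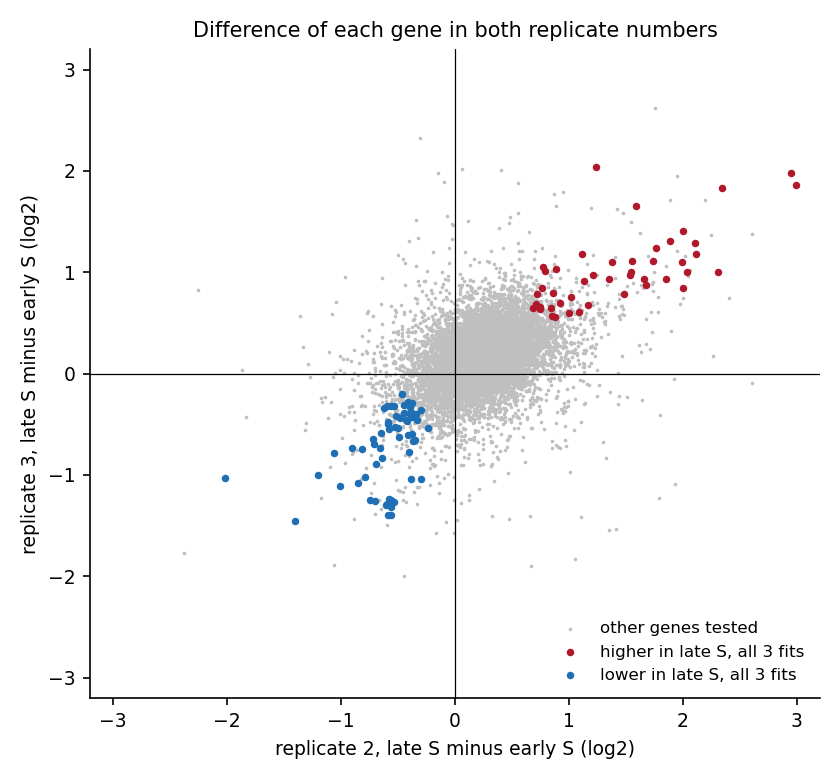
Late S minus early S for each of the 10650 genes, in log2(TPM + 1) units, in replicate 2 (horizontal axis) and in replicate 3 (vertical axis). Red points are the 46 genes higher and blue points the 61 genes lower in late S in all 3 fits. All of them lie on the same side of 0 in both replicate numbers, which their selection from these libraries favours.

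Genes that build the spindle and split the cell were higher in late S. Of the 25 members of the spindle and cytokinesis list that were tested, 21 rose and none fell, with a median difference of 1.02, against 0.22 for all genes. With median-ratio scaling 7 rose, and the median was 0.82, against -0.01 for all genes. Counts of this list and those below stand against 11.0% of all genes called higher and 0.732% called lower. With median-ratio scaling these shares were 0.488% and 0.845%. Without S4 replicate 2, 5 of the 25 passed, and over the 8 fits that left out 1 library the list's median stayed between 0.57 and 1.02 above that of all genes. KIF20A, a kinesin of the central spindle, is counted in the list of mitotic kinesins and not in this list. It had 117 and 146 TPM in S3 and S4 of replicate 2 and 160 and 269 TPM in S3 and S4 of replicate 3, against 18.4 and 33.7 TPM in S1 and S2 of replicate 2 and 35.0 and 94.5 TPM in S1 and S2 of replicate 3. The late S libraries all lay above the early S libraries, and KIF20A rose by 2.09 ± 0.29 (SE; limma, adjusted p = 0.00849).

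HMMR, a spindle assembly factor, reached 94.6 and 87.5 TPM in S3 and S4 of replicate 2 and 82.8 and 122 TPM in S3 and S4 of replicate 3, against 18.8 and 25.8 TPM in S1 and S2 of replicate 2 and 46.7 and 65.8 TPM in S1 and S2 of replicate 3. The groups did not overlap, and its difference was 1.42 ± 0.23 (SE; limma, adjusted p = 0.00935). KNSTRN, which helps chromosomes stay attached to the spindle, averaged 144 ± 18.5 TPM in late S and 50.6 ± 21.7 TPM in early S (SD, n = 4 each), a rise of 1.60. DLGAP5, which stabilises spindle microtubules, averaged 154 ± 62.1 TPM in late S and 61.7 ± 47.4 TPM in early S (SD, n = 4 each), a rise of 1.55. Its libraries overlapped between the groups, unlike those of KNSTRN. TPX2, which targets Aurora A to the spindle, rose by 1.17 and PSRC1, a microtubule binding protein, by 1.46 with equal-sum scaling, and neither passed with median-ratio scaling, where their differences were 0.94 and 1.22. TROAP, a cytoskeletal protein of mitotic cells, rose by 1.81 and had 1.58 with median-ratio scaling, which did not pass.

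Kinases, cyclins and phosphatases of mitotic entry moved with them. Of 25 members tested, 17 rose and none fell, with a median difference of 0.94, and with median-ratio scaling 5 rose at a median of 0.71. Without S1 replicate 3, 5 of the 25 passed. CCNB1, the cyclin that activates CDK1 for entry into mitosis, had 293 and 349 TPM in S3 and S4 of replicate 2 and 321 and 496 TPM in S3 and S4 of replicate 3, against 56.6 and 94.2 TPM in S1 and S2 of replicate 2 and 141 and 218 TPM in S1 and S2 of replicate 3. Each late S library was above each early S library, a rise of 1.65 ± 0.23 (SE; limma, adjusted p = 0.00849). PLK1, a kinase that drives mitotic entry and spindle formation, had 308 and 277 TPM in S3 and S4 of replicate 2 and 277 and 409 TPM in S3 and S4 of replicate 3, against 45.9 and 113 TPM in S1 and S2 of replicate 2 and 93.2 and 172 TPM in S1 and S2 of replicate 3. It rose by 1.70 ± 0.27 (SE; limma, adjusted p = 0.00925), again with no overlap between the groups.

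CDC25B, a phosphatase that releases CDK1 from inhibition, averaged 158 ± 35.2 TPM in late S and 49.9 ± 20.6 TPM in early S (SD, n = 4 each) and rose by 1.70. CCNB2, the second B-type cyclin, rose by 1.52, and BUB1, a kinase of the spindle checkpoint, by 1.39. These genes and KIF20A, HMMR, KNSTRN, CCNB1 and PLK1 passed in all 3 fits and in each fit that left out 1 library. CDK1 itself had a smaller difference of 1.03 ± 0.23 (SE; limma, adjusted p = 0.0245), as did CCNA2, the cyclin of S phase and G2, with 1.03 ± 0.24 (SE; limma, adjusted p = 0.0272), and with median-ratio scaling neither passed. CDK1 averaged 171 ± 79.2 TPM in late S and 95.1 ± 63.0 TPM in early S (SD, n = 4 each), and the groups overlapped. AURKA, a centrosomal kinase, rose by 1.27, AURKB, the kinase of the chromosomal passenger complex, by 1.25 and CCNF, a cyclin of a ubiquitin ligase, by 1.19. All 3 missed the threshold with median-ratio scaling, at 1.04, 1.01 and 0.96.

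Of 30 tested genes of centromeres and kinetochores, where spindle fibres grip the chromosome, 12 rose and none fell, with a median difference of 0.54. With median-ratio scaling 2 rose, at a median of 0.31, and without S1 replicate 3 the count with equal-sum scaling was 2. CENPA, the histone H3 variant that marks centromeres, had the largest rise among the genes whose groups did not overlap. It had 165 and 123 TPM in S3 and S4 of replicate 2 and 166 and 202 TPM in S3 and S4 of replicate 3, against 8.48 and 35.4 TPM in S1 and S2 of replicate 2 and 44.6 and 47.1 TPM in S1 and S2 of replicate 3. Every late S library was above every early S library, and CENPA rose by 2.46 ± 0.33 (SE; limma, adjusted p = 0.00849). CENPF, a kinetochore protein that builds up before mitosis, averaged 245 ± 41.0 TPM in late S and 97.5 ± 22.5 TPM in early S (SD, n = 4 each) and rose by 1.33 ± 0.15 (SE; limma, adjusted p = 0.00481). HJURP, the chaperone that loads CENPA, rose by 1.09, and SGO2, a guardian of centromeric cohesion, by 1.33. CENPE, a kinetochore kinesin counted in the list of mitotic kinesins, rose by 1.28. None of them passed with median-ratio scaling. ZWINT, of the centromere and kinetochore list, did not pass, with 240 ± 126 TPM in late S and 319 ± 189 TPM in early S (SD, n = 4 each).

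Of 13 tested mitotic kinesins, the motor proteins of the spindle, 8 rose and none fell, at a median of 0.87, and with median-ratio scaling KIF20A alone rose. Without S1 replicate 3 the count was 1. KIF14, which acts in cytokinesis, had 1.37 with equal-sum scaling and 1.15 with median-ratio scaling, and passed with the first of these. Of 21 genes of the anaphase-promoting complex and its partners, 9 rose and none fell, at a median of 0.48. With median-ratio scaling 1 rose, CDC20, at a median of 0.25, and without S4 replicate 2 the count with equal-sum scaling was 0. CDC20, the activator that starts anaphase, carried the largest difference of this list. It had 109 and 102 TPM in S3 and S4 of replicate 2 and 138 and 162 TPM in S3 and S4 of replicate 3, against 13.7 and 30.2 TPM in S1 and S2 of replicate 2 and 57.5 and 95.5 TPM in S1 and S2 of replicate 3, a rise of 1.66 ± 0.28 (SE; limma, adjusted p = 0.0114) without overlap that was lost without S4 replicate 2. UBE2C, the ubiquitin-conjugating enzyme of the complex, rose by 1.31 and missed the threshold with median-ratio scaling, at 1.07.

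Condensins, cohesins and topoisomerase II, which shape and untangle chromosomes, gave 6 of 26 tested genes higher and none lower, at a median of 0.30, near the 0.22 of all genes. With median-ratio scaling PTTG1 alone rose, and without S4 replicate 2 the count with equal-sum scaling was 0. TOP2A, which untangles sister DNA, rose by 1.25 and PTTG1, the securin that guards cohesin, by 1.27. MKI67, the coat protein of mitotic chromosomes, averaged 271 ± 54.9 TPM in late S and 167 ± 44.0 TPM in early S (SD, n = 4 each) and rose by 0.71, and SMC4, a condensin subunit, rose by 0.68. Of these 4, PTTG1 passed in all 3 fits. Centriole duplication genes gave 4 of 14 higher and none lower, at a median of 0.38, with PLK4, the kinase that starts centriole assembly, at 0.78. None of the 14 rose with median-ratio scaling, where PLK4 had 0.55, or on recovered reads, and without S1 replicate 3 the count with equal-sum scaling was 0.

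PIF1, a DNA helicase, belongs to none of the lists and had the second largest rise. It had 166 and 230 TPM in S3 and S4 of replicate 2 and 163 and 290 TPM in S3 and S4 of replicate 3, against 12.7 and 43.9 TPM in S1 and S2 of replicate 2 and 41.2 and 85.1 TPM in S1 and S2 of replicate 3. The groups did not overlap, and PIF1 rose by 2.42 ± 0.37 (SE; limma, adjusted p = 0.00889) and passed in all 3 fits.

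**Figure D2:**
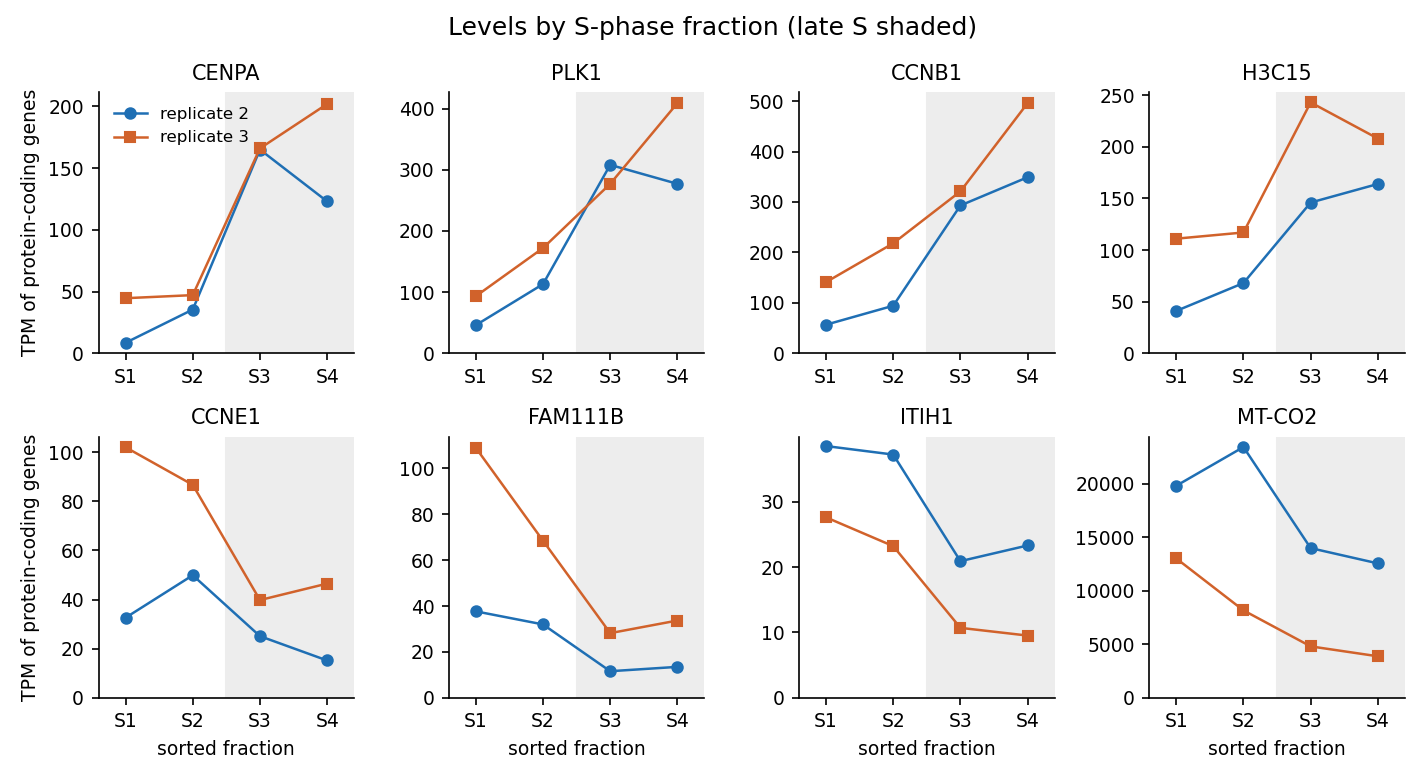
Levels of 8 genes in TPM of protein-coding genes (vertical axis, from 0) over the fractions S1 to S4 (horizontal axis), with replicate 2 as blue circles, replicate 3 as orange squares and late S shaded. CENPA, PLK1, CCNB1 and H3C15 were above both early S libraries of the same replicate number in late S, and CCNE1, FAM111B, ITIH1 and MT-CO2 were below them.

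Promoters of 6 genes that rose in all 3 fits are shown as examples of CHR elements with a CCAAT box in the same stretch, which are known from this class. They were chosen because they hold CHR and are not the 6 largest rises, so they say nothing of how common the element is among genes that rose. Each stretch is the 130 bases before a start of the gene from RefSeq's tables (GRCh38.p14), written 5′ to 3′ on the gene's strand. Capitals mark CHR, searched as TTTGAA. The spelling TTCGAA was searched for it as well. They also mark the CCAAT box, spelled as named. They mark E2F-type sites too (TTTCCCGC and also TTTGGCGC and also TTTCGCGC and also TTTGCCGC). Each was searched on both strands, and a position is that of the first base of the match counted back from the start. CENPA lies at chr2:26785926-26786055 on the plus strand, with CHR at -18 and its CCAAT box far from it, at -130. PIF1 lies at chr15:64825648-64825777 on the minus strand, with CHR at -20. That stretch is inside the gene's whole span of 64815632 to 64827062, so the start used for PIF1 is not the outermost. PLK1 lies at chr16:23678759-23678888 on the plus strand, with CHR at -29, as in CCNB2, at chr15:59105016-59105145 on the plus strand. CDC20 lies at chr1:43358851-43358980 on the plus strand, with CHR at -65, and HMMR at chr5:163460502-163460631 on the plus strand, with CHR at -28 and at -22 and with CCAAT boxes on opposite strands at -69 and -66 that overlap.
CENPA: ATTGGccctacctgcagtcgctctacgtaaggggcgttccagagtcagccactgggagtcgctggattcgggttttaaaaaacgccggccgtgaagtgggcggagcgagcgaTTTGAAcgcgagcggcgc
PIF1: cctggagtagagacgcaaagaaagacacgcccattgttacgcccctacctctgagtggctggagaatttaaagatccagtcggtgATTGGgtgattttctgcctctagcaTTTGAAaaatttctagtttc
PLK1: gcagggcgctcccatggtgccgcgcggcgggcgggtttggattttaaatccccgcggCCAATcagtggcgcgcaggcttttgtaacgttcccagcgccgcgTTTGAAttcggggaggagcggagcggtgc
CDC20: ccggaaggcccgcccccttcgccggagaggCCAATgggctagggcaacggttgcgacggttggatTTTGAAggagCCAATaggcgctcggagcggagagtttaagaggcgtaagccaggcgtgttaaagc
CCNB2: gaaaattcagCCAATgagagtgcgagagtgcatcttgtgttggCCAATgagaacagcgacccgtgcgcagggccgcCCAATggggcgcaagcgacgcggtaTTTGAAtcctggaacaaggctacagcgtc
HMMR: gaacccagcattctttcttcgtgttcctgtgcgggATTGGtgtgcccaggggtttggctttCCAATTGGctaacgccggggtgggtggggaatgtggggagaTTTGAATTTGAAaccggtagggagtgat

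Over the 250 bases before the start, 8776 of the 10650 genes tested had a promoter in the table, and 9.83% of them held CHR and 4.22% held CHR and CCAAT together. Of the 19 spindle and cytokinesis genes with a promoter, 68.4% held CHR and 63.2% held both. Of the 40 genes with a promoter among those higher in all 3 fits, 32.5% held CHR and 30.0% both, and of 992 among the 1173, 13.6% held CHR and 8.27% both. Of the 42 with a promoter among the 61 lower in all 3 fits, 16.7% held CHR and 11.9% both. Of the 27 genes with a promoter in the list of hepatocyte secreted proteins, 29.6% held CHR and 7.41% both. CHR was thus found among genes that fell as well. In the whole table, 14.6% of 27305 promoters held CHR. A match is a description of letters and not of binding.

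A few genes of the G1/S border were lower in late S, and most of them did not pass in either direction. Of 31 tested genes of origin licensing and G1/S entry, 4 fell (CCNE1, CCNE2, E2F7 and UHRF1) and 3 rose (ORC2, TICRR and DBF4), with a median difference of -0.01, which was 0.23 under the median of all genes. With median-ratio scaling 5 fell and 1 rose, with MCM4, a subunit of the replicative helicase, joining the falls, at a median of -0.24, and on recovered reads 7 fell and 3 rose, at a median of -0.21. The 3 rises of 31 were near the 11.0% of all genes called higher, and the 4 falls stood against 0.732% called lower. Without S4 replicate 2 the count of rises was 0, and without S1 replicate 3 the count of falls was 1. CCNE1, the cyclin that drives cells into S phase, had 25.1 and 15.2 TPM in S3 and S4 of replicate 2 and 39.8 and 46.5 TPM in S3 and S4 of replicate 3, against 32.6 and 49.9 TPM in S1 and S2 of replicate 2 and 102 and 86.7 TPM in S1 and S2 of replicate 3. Within each replicate number both late S libraries were lower, although the groups overlapped across replicate numbers, and CCNE1 fell by 1.06 ± 0.18 (SE; limma, adjusted p = 0.0108). CCNE2, its partner gene, fell by 1.10 ± 0.22 (SE; limma, adjusted p = 0.0195), to 8.02 ± 3.98 TPM in late S against 18.5 ± 10.2 TPM in early S (SD, n = 4 each). CCNE1 passed in each fit that left out 1 library, and CCNE2 did not pass without S1 replicate 3, S4 replicate 2 or S4 replicate 3.

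E2F7, a repressor among the E2F factors, and UHRF1, which guides DNA methylation to newly copied DNA, fell by 0.80 and 0.55. UHRF1 had 70.0 and 62.4 TPM in S3 and S4 of replicate 2 and 116 and 131 TPM in S3 and S4 of replicate 3, against 104 and 96.2 TPM in S1 and S2 of replicate 2 and 192 and 160 TPM in S1 and S2 of replicate 3. In the other direction, DBF4, the activator of the kinase that fires origins, rose by 0.80 ± 0.13 (SE; limma, adjusted p = 0.0108) and passed in all 3 fits. TICRR, an origin firing factor, rose by 0.85 and ORC2, of the origin recognition complex, by 0.53, and neither passed with median-ratio scaling. Outside the lists, FAM111B, a protease gene, and HELLS, a chromatin remodeller, were picked after their values were seen. FAM111B had 11.6 and 13.5 TPM in S3 and S4 of replicate 2 and 28.2 and 33.7 TPM in S3 and S4 of replicate 3, against 37.7 and 32.0 TPM in S1 and S2 of replicate 2 and 109 and 68.5 TPM in S1 and S2 of replicate 3, and fell by 1.43 ± 0.16 (SE; limma, adjusted p = 0.00481). Its fall was close in both replicate numbers, at -1.40 and -1.46. HELLS fell by 0.38 and passed in 1 of the 8 fits that left out 1 library.

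The same stretch of promoter is shown for UHRF1 (chr19:4909371-4909500, plus strand, E2F-type site at -14) and HELLS (chr10:94545658-94545787, plus strand, E2F-type sites at -76 and -8), as examples chosen because they hold E2F-type sites. Larger falls such as FAM111B, CCNE2, CCNE1 and E2F7 are not shown, and HELLS belongs to none of the lists. Of the 25 genes of the licensing and G1/S list with a promoter, 40.0% held an E2F-type site within 250 bases, against 4.80% of the genes tested and 2.79% of the whole table, and 4.0% held CHR.
UHRF1: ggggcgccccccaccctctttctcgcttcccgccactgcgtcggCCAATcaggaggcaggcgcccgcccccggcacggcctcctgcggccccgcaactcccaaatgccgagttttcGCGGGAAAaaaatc
HELLS: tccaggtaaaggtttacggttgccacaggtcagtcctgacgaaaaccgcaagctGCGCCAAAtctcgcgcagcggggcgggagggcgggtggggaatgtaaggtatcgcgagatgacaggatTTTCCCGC

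Other genes of the G1/S border did not pass. PCNA, the sliding clamp of the replication fork, had 408 ± 200 TPM in late S and 521 ± 295 TPM in early S (SD, n = 4 each), with a difference of -0.29 ± 0.10 (SE; limma, adjusted p = 0.0722). With median-ratio scaling PCNA passed, at -0.53. CDC6 and CDT1, which load the replicative helicase, had -0.21 and -0.22, MCM2 and MCM5, subunits of that helicase, -0.11 and -0.29, E2F1 -0.25, and SLBP, which binds histone mRNA, -0.16. For nucleotide supply, TYMS and RRM2, the enzymes that make thymidylate and deoxynucleotides, had 0.27 and 0.25, close to the median of all genes. A miss of the threshold does not show that these levels were equal.

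The machinery that copies and mends DNA gave few calls. Of 27 replication fork genes none rose and none fell, at a median of 0.15, and of 30 genes of homologous recombination and the Fanconi pathway none did either, at a median of 0.15. With median-ratio scaling both medians were -0.08, and 1 fork gene fell, PCNA. On recovered reads 2 fork genes and 4 genes of recombination and the Fanconi pathway fell, and the medians were -0.16 and -0.12. Of 12 genes of deoxynucleotide synthesis 1 had a call, CAD, the enzyme that starts pyrimidine synthesis, higher by 0.44, and of 12 genes of the replication checkpoint 1 did, CHEK2, a checkpoint kinase, higher by 0.58. Of 13 CDK inhibitors and G1 cyclins 1 did, CDKN1B, higher by 0.67. These single calls are near the 11.0% of all genes called higher, each was lost in 7 of the 8 fits that left out 1 library, and with median-ratio scaling none passed, at 0.21, 0.35 and 0.44. Of 21 targets of p53 tested, 1 rose, AEN, a nuclease, by 0.65, and 1 fell, TP53INP1, by 0.51. With median-ratio scaling AEN missed the threshold, at 0.42.

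Replication-dependent histones, whose mRNAs end without a poly(A) tail, gave 11 of 52 tested genes higher and none lower, at a median of 0.47. Of all genes, 11.0% were called higher, and their median was 0.22. With median-ratio scaling 2 rose, H3C14 and H3C15, at a median of 0.24, and without S3 replicate 2 the count was 3. H3C15 had 146 and 164 TPM in S3 and S4 of replicate 2 and 243 and 208 TPM in S3 and S4 of replicate 3, against 41.0 and 68.0 TPM in S1 and S2 of replicate 2 and 111 and 117 TPM in S1 and S2 of replicate 3, a rise of 1.25 ± 0.16 (SE; limma, adjusted p = 0.00849). H3C14 rose by 1.23 and H3C13 by 1.02. Histone genes have near-identical copies, and H3C15 overlaps H4C15, so their levels are uncertain if the counting split reads between copies. H1-4, a linker histone and among the most abundant members, averaged 1731 ± 532 TPM in late S and 1175 ± 332 TPM in early S (SD, n = 4 each) and rose by 0.56. H3C2 rose by 0.77, and H4C3 did not pass, at 0.24. Of 10 replication-independent histones none rose and none fell.

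Genes for making ribosomes were higher in late S. The list for RNA polymerase I and ribosome assembly, which was put together after values were seen, gave 40 of 60 tested genes higher and none lower, at a median of 0.52. With median-ratio scaling 2 rose, NOP56 and POLR1A, at a median of 0.29, and without S4 replicate 2 the count with equal-sum scaling was 3. NOP56, a core protein of the particles that modify ribosomal RNA, had 1115 and 1242 TPM in S3 and S4 of replicate 2 and 2611 and 2522 TPM in S3 and S4 of replicate 3, against 774 and 693 TPM in S1 and S2 of replicate 2 and 1505 and 1791 TPM in S1 and S2 of replicate 3. Within each replicate number the late S libraries were higher, although the groups overlapped across replicate numbers, and NOP56 rose by 0.66 ± 0.10 (SE; limma, adjusted p = 0.00884). POLR1A, the largest subunit of RNA polymerase I, averaged 111 ± 22.2 TPM in late S and 67.9 ± 14.6 TPM in early S (SD, n = 4 each) and rose by 0.70 without overlap. NCL, the abundant nucleolar protein nucleolin, rose by 0.44, DDX10, a helicase of ribosome assembly, by 0.86, LYAR by 0.74 and RRP12 by 0.71. PUS7, which makes pseudouridine in RNA, rose by 0.76 and was picked after its values were seen. Of 72 ribosomal protein genes 24 rose and none fell, against 11.0% of all genes called higher. Their median of 0.29 was near the 0.22 of all genes, and RPL26 and RPL17 led at 0.67 each. Without S4 replicate 2 the count of rises was 0. With median-ratio scaling none rose, at a median of 0.05, and on recovered reads 3 rose and 1 fell. RPL17 overlaps a read-through gene.

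Genes of the liver programme that encode secreted plasma proteins were lower. Of 36 tested, 14 fell and none rose, at a median of -0.32, and with median-ratio scaling 12 fell, at a median of -0.55. None of the 36 was above the median of all genes, and over the 8 fits that left out 1 library the list's median stayed between 0.62 and 0.44 under it. The count of falls without S1 replicate 3 was 1. Differences under the median of all genes were not confined to this list. Of 20 tested genes of the unfolded protein response, 1 rose and none fell, at a median of -0.04. Of these 20, 2 were above the median of all genes, and on recovered reads 6 fell and none rose. Outside the lists, FN1, LAMB2, LRP1 and PSAP were lower in all 3 fits and were picked after their values were seen. ITIH1, which crosslinks hyaluronan, had 20.9 and 23.3 TPM in S3 and S4 of replicate 2 and 10.7 and 9.52 TPM in S3 and S4 of replicate 3, against 38.5 and 37.2 TPM in S1 and S2 of replicate 2 and 27.6 and 23.2 TPM in S1 and S2 of replicate 3, a fall of 1.00 ± 0.16 on the log2 scale (SE; limma, adjusted p = 0.00925). Only the highest late S library touched the range of early S, and ITIH1 passed in each fit that left out 1 library.

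HPX, which binds free haem, averaged 35.7 ± 12.8 TPM in late S and 57.4 ± 17.3 TPM in early S (SD, n = 4 each) and fell by 0.68. KNG1, the source of bradykinin, had 26.8 and 23.8 TPM in S3 and S4 of replicate 2 and 14.5 and 17.5 TPM in S3 and S4 of replicate 3, against 30.4 and 32.2 TPM in S1 and S2 of replicate 2 and 35.7 and 31.7 TPM in S1 and S2 of replicate 3. It fell by 0.67 and its groups did not overlap. FGB, a chain of fibrinogen, averaged 619 ± 53.9 TPM in late S and 813 ± 81.2 TPM in early S (SD, n = 4 each) and fell by 0.39. SERPINA1, the inhibitor of neutrophil elastase, fell by 0.38 and TF, the iron carrier transferrin, by 0.37. ALB, the most abundant of them, did not pass with equal-sum scaling, at 17238 ± 6220 TPM in late S and 21675 ± 5780 TPM in early S (SD, n = 4 each). APOA1, the main protein of HDL, and AFP, the fetal albumin, had -0.31 and -0.12 and did not pass. Of 18 liver transcription factors tested, 1 rose and none fell, against 11.0% of all genes called higher. It was ONECUT1, which averaged 117 ± 11.1 TPM in late S and 62.4 ± 13.2 TPM in early S (SD, n = 4 each), a rise of 0.91 that passed in all 3 fits.

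Single genes of liver metabolism stood among the largest falls without overlap. CYP3A43, a cytochrome P450, had 3.24 and 10.2 TPM in S3 and S4 of replicate 2 and 9.67 and 10.3 TPM in S3 and S4 of replicate 3, against 25.7 and 28.1 TPM in S1 and S2 of replicate 2 and 21.3 and 21.7 TPM in S1 and S2 of replicate 3. It fell by 1.53 ± 0.29 (SE; limma, adjusted p = 0.0173) and passed in all 3 fits and in each fit that left out 1 library. AKR1D1, a reductase of bile acid synthesis, averaged 11.4 ± 2.97 TPM in late S and 22.0 ± 0.905 TPM in early S (SD, n = 4 each) and fell by 0.92. CYP3A5 fell by 0.81, and DPP4, a surface peptidase, and SERPINA5, a protease inhibitor, fell by 0.38 and 0.33. CYP3A genes are close relatives, so reads may be divided among them. The other falls of this kind were GABARAPL1 (0.78), BAD (0.72), KIF3C (0.70), OGDHL (0.70), COX6B1 (0.52), CEMIP (0.48), TMEM59 (0.47) and SFXN3 (0.46), each given as the size of the fall on the log2 scale. Of these 14 falls CYP3A43 alone passed in each of the 8 fits that left out 1 library, AKR1D1 passed in 6, and BAD passed in none. BAD and CYP3A5 also missed the threshold with median-ratio scaling.

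All 13 mitochondrially encoded mRNAs, which code for subunits of the respiratory chain, fell, at a median of -0.91. With median-ratio scaling 9 fell, at a median of -1.14, and without S4 replicate 2 the count was 0. MT-CO2 had 13980 and 12553 TPM in S3 and S4 of replicate 2 and 4805 and 3879 TPM in S3 and S4 of replicate 3, against 19799 and 23416 TPM in S1 and S2 of replicate 2 and 13016 and 8166 TPM in S1 and S2 of replicate 3. Late S was lower within each replicate number, with a fall of 0.98 ± 0.17 (SE; limma, adjusted p = 0.013) that was larger in replicate 3, at -1.26, than in replicate 2, at -0.70. MT-ATP8 fell by 0.99, MT-ND3 by 0.98, MT-CO1 by 0.85 and MT-CO3 by 0.76, of which MT-CO1 and MT-CO3 missed the threshold with median-ratio scaling. The RNA is labelled as nuclear, while these mRNAs are made outside the nucleus and took between 6.02% and 30.1% of the protein-coding TPM in the 8 libraries. The part of carried-over RNA from outside the nucleus in their fall was not tested. Of 67 respiratory chain genes encoded in the nucleus, 2 rose and 1 fell, at a median of 0.19, with UQCR11 higher by 0.88 and COX6B1 lower. Among all genes 11.0% were called higher and 0.732% lower. With median-ratio scaling COX6B1 alone passed, and UQCR11 had 0.66. The 13 mRNAs come from shared transcripts and are not independent.

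With the summed level of these mRNAs as a further term, a fit added after the data had been seen, 0 genes passed and 607 had an unadjusted p under 0.05. If no gene differed, a share of about 0.05 of the 10650 genes would do so. In that fit the median of all genes was 0.16, that of the spindle list 1.14, that of the mitotic entry list 1.02, that of ribosome assembly 0.31 and that of the secreted proteins -0.15. CENPA had 2.89 ± 0.64 and CCNE1 -0.88 ± 0.35 (SE), while ALB had 0.03. Rescaling without mitochondrially encoded and replication-dependent histone genes, and without that term, left 100 genes higher and 68 lower. The median of all genes was then 0.06, against 0.22 with equal-sum scaling. The part of the mitochondrial share in the calls was not tested beyond these values.

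**Figure D3:**
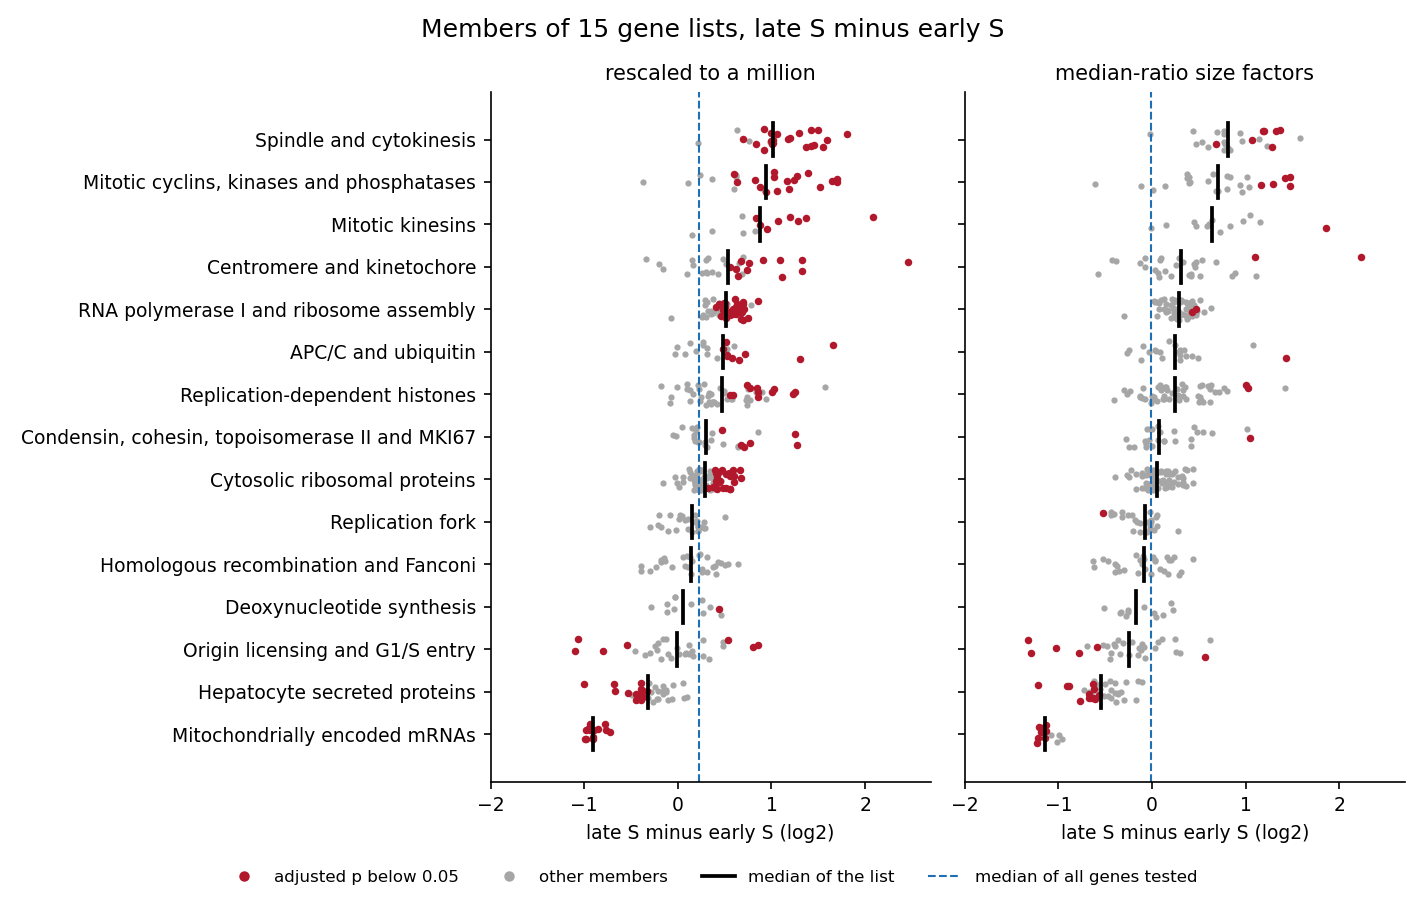
Late S minus early S, in log2 units (horizontal axis), for each tested member of 15 gene lists (rows), with equal-sum scaling on the left and median-ratio size factors on the right. Red points passed at an adjusted p below 0.05, grey points did not, black bars are list medians and the dashed line is the median of all genes, 0.22 on the left and -0.01 on the right.

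Several genes of other lists rose and missed the threshold with median-ratio scaling. LBR and LMNB1, of the nuclear lamina, rose by 0.65 and 0.46, LIN9, of the complex that binds CHR elements, by 0.83, MYC by 0.64 and ENO2, a glycolytic enzyme, by 0.56. SNRPE, of the spliceosome, rose by 0.70 and did pass in all 3 fits. Further rises without overlap outside the lists were ELP5, of the elongator complex, by 1.64, and HOXD1, a homeobox factor, by 1.62, which both passed in all 3 fits, and CCDC163 by 1.59 and FAM72D by 1.54, which did not pass with median-ratio scaling. FAM72D has near-identical copies, and ELP5 overlaps CLDN7 and CTDNEP1. CCDC195 (2.19) and NPFF (1.8) were listed at 0 TPM in 2 and 1 of the early S libraries, and neither passed with median-ratio scaling. The strand setting of the counting is not stated, so reads of overlapping genes (KIF20A with CDC23, PLK1 with ERN2, CCNA2 with EXOSC9, UHRF1 with ARRDC5, CCNE2 with INTS8, BAD with GPR137) may not be separable.

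Steps between neighbouring fractions differed among the lists. The median step of the 1173 genes called higher was 0.13 from S1 to S2, 0.46 from S2 to S3 and 0.03 from S3 to S4, against 0.04, 0.17 and 0.04 for all genes. These genes were called by S3 and S4 against S1 and S2, which selects for the step from S2 to S3, so nothing is read from its size. The spindle list had steps of 0.85, 0.65 and 0.15, the mitotic kinesins 1.00, 0.44 and 0.26 and the mitotic entry list 0.67, 0.57 and 0.09, with the larger step from S1 to S2 in each. Replication-dependent histones had 0.48, 0.32 and -0.20, and the replication fork list 0.18, 0.10 and -0.19. Ribosome assembly had 0.11, 0.45 and 0.03, and the mitochondrially encoded mRNAs -0.37, -0.63 and -0.20.

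**Figure D4:**
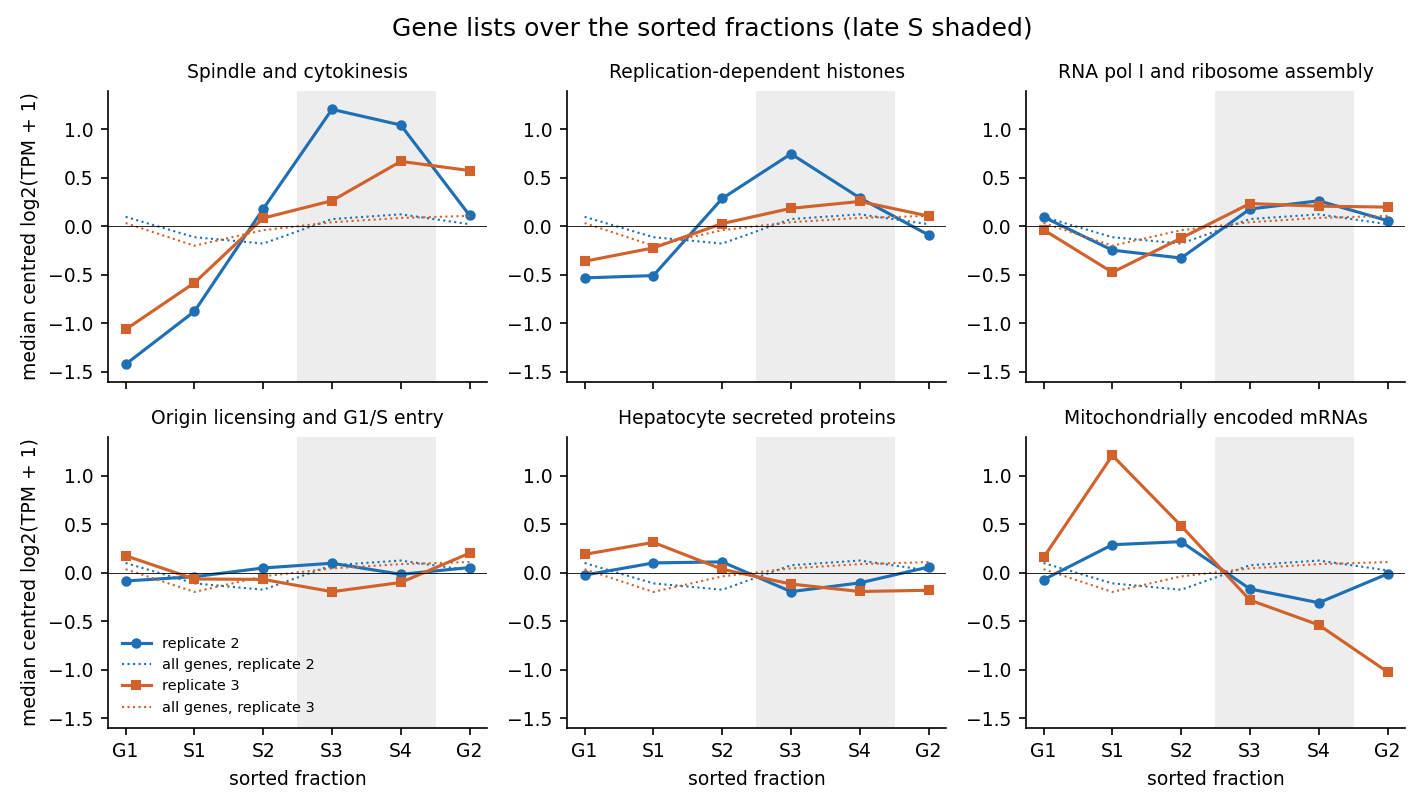
Median level of 6 gene lists in log2(TPM + 1), centred on each gene's mean within its replicate number (vertical axis), over G1, S1, S2, S3, S4 and G2 (horizontal axis), for replicate 2 (blue circles) and replicate 3 (orange squares), with dotted lines for all genes and late S shaded. The spindle list ran from -1.42 in G1 to 1.21 in S3 and back to 0.11 in G2 in replicate 2, and from -1.06 in G1 to 0.67 in S4 and 0.57 in G2 in replicate 3.

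The size of the change differed between the replicate numbers in several lists. The spindle list had a median of 1.45 in replicate 2 and 0.68 in replicate 3, the kinetochore list 0.87 and 0.26, and the histones 0.66 and 0.26, while the mitochondrially encoded mRNAs had -0.56 in replicate 2 and -1.26 in replicate 3. The secreted proteins had -0.30 and -0.36 and ribosome assembly 0.49 and 0.52, close in both. By limma's interaction term, 383 of 10650 genes had an unadjusted p under 0.05, where a share of about 0.05 would if none differed. At an adjusted p below 0.05, 1 gene (0.00939%) differed between the replicate numbers. That gene was TMEM14C, a mitochondrial transporter, at 39.5 and 39.0 TPM in S3 and S4 of replicate 2 and 13.7 and 11.6 TPM in S3 and S4 of replicate 3, against 19.1 and 17.8 TPM in S1 and S2 of replicate 2 and 59.2 and 38.0 TPM in S1 and S2 of replicate 3. It was higher in late S in replicate 2 and lower in replicate 3 (interaction -2.88 ± 0.33, SE; limma, adjusted p = 0.0223).

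G2 and G1 were sorted as well and share no library with late S or early S. Of the 46 genes higher in late S in all 3 fits, 45 were higher in G2 than in G1 (97.8%, against 49.2% of all genes), and 35 were higher in both replicate numbers (76.1%, against 24.2%). Of the 61 lower genes, 50 were lower in G2 than in G1 (82.0%, against 50.8%), and 20 in both replicate numbers (32.8%, against 24.4%). Of the 1173 and the 78, 829 (70.7%) and 62 (79.5%) had the same direction. CENPA had 58.1 and 155 TPM in G2 and 6.84 and 22.5 TPM in G1, and PIF1 102 and 306 TPM in G2 and 4.83 and 24.8 TPM in G1, in replicates 2 and 3. FAM111B had 27.6 and 49.3 TPM in G2 and 18.5 and 87.3 TPM in G1, so its direction differed between the replicate numbers. The spindle list had a median of 1.61 and the mitotic kinesins 1.75 in G2 minus G1, with the same sign in both replicate numbers. Ribosome assembly had -0.07 in replicate 2 and 0.26 in replicate 3, and the secreted proteins 0.08 and -0.37, so their signs differed between the replicate numbers. Over all 10650 genes the 2 differences correlated with Pearson r = 0.319, a description over genes that share their cell line and replicate numbers.

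**Figure D5:**
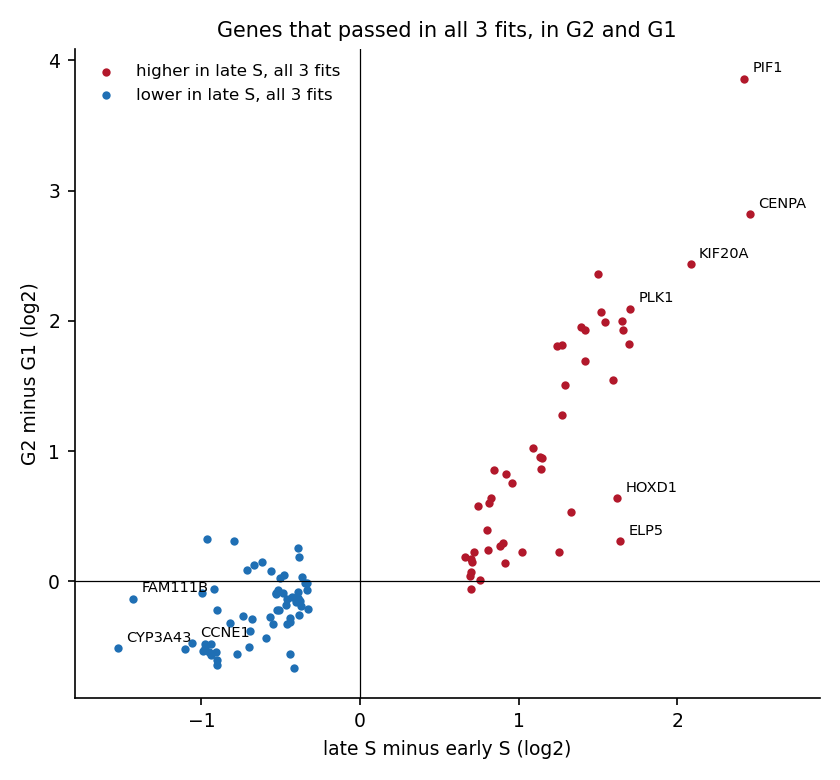
G2 minus G1 (vertical axis) against late S minus early S (horizontal axis), both in log2(TPM + 1) units, for the 46 genes higher (red) and the 61 genes lower (blue) in late S in all 3 fits. The 2 differences share no library, and 45 of the red points lie above 0 and 50 of the blue points below 0 on the vertical axis.

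In replicate 2, levels in G2 lay under those of late S for many mitotic genes. CENPA had 58.1 TPM in G2 of replicate 2, against 165 and 123 TPM in its S3 and S4, and CCNB1 180 TPM, against 293 and 349 TPM. In replicate 3, CENPA had 155 TPM in G2, against 166 and 202 TPM in S3 and S4, and CCNB1 464 TPM, against 321 and 496 TPM. By chromosome, the median difference was between 0.18 and 0.26 on the autosomes and 0.13 over 328 genes of the X chromosome. In 4 equal bins by transcript length the medians lay between 0.21 and 0.23, and in 4 bins by mean level between 0.16 and 0.25, with the lowest value in the bin of the lowest levels.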

How the data were processed

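RNA was measured by RNA-seq in 15 libraries, and the 8 libraries of S1 to S4 were compared here. The 18 Repli-seq samples were not used here. Per the submitters' processing notes, cutadapt, Trimmomatic, HISAT2, BWA, SAMtools and hg38 were used, with no role or version given. The sources used here name neither the counting program nor the annotation. The authors deposited log2 values per gene, and these are log2(TPM + 1), since back-transformed values sum to 1000000. The test had been planned for TPM, so they were back-transformed. They were then limited to 19316 protein-coding genes and rescaled to 1000000 per library (equal-sum scaling), and genes with a mean of at least 5 were kept. Fold changes on log2(TPM + 1), with a pseudocount of 1, understate changes of low genes. The steps of the TPM values gave back whole reads, or read pairs, for all 50310 genes seen in 3 or more libraries. Of the implied gene lengths, 99.5% were whole within 0.01 base.

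The test was limma 3.58.1 in R 4.3.3 with an intensity trend, late S against early S, with the replicate number as a block and Benjamini-Hochberg adjusted p below 0.05 over all genes tested. It was tested on simulated data. The replicate numbers pair the libraries: deviations of same-numbered libraries from their fraction means correlated at 0.584 to 0.669 over all 6 pairs of fractions. The labels do not say what a number marks. Replicates differed beyond sampling noise (chi-square over its degrees of freedom 34.4 or more). The comparison, its members and the gene lists were chosen with earlier results of these data known. Named genes were up to 15 rises and 15 falls, by size, of called genes whose groups did not overlap (14 falls qualified), a fixed panel, and per list the 2 most abundant members and the 3 called members that changed most, where present. Not every gene this rule gives is named. FAM111B, UHRF1, HELLS, E2F7, DBF4, POLR1A, PUS7, TMEM14C, FN1, LAMB2, LRP1 and PSAP were named after their values were seen, as were 2 lists (ribosome assembly and the spliceosome core). Promoter sequences and positions are from RefSeq's GRCh38.p14 tables. Alternatives changed the replicate term, libraries, pseudocount, filter, scaling, trend and weights.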

Additional observations from a re-analysis of the deposited data

Results flagged for a closer look

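Of 226 groups of 4 libraries checked for the named genes, 10 held 1 library that lay apart from the other 3 by more of the group's range than Dixon's critical value for 4 values, and chance gives about 1 in 20. S4 replicate 3, the deepest library, stood high among the late S libraries for KNSTRN (172 TPM, the others 134 to 136), CCNF (149 TPM, the others 96.3 to 104) and KIF14 (104 TPM, the others 60.3 to 66.0). S4 replicate 2 stood low among the late S libraries for AURKB (271 TPM, the others 398 to 420) and DPP4 (58.8 TPM, the others 72.0 to 74.5), and high for FGB (699 TPM, the others 581 to 599). CYP3A43 had 3.24 TPM in S3 replicate 2, with the other late S libraries at 9.67 to 10.3 TPM, and CCDC195 had 22.0 TPM in S3 replicate 3, with the others at 4.93 to 6.67 TPM. Among early S libraries, GABARAPL1 had 22.9 TPM in S1 replicate 2, with the others at 13.8 to 15 TPM, and RRP12 had 77.6 TPM in S2 replicate 3, with the others at 42.7 to 46.2 TPM.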

How the results depend on the processing

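Beside the reported 1173 higher and 78 lower genes, 25 other settings were run. Without the replicate block 0 and 0 passed, with 813 at an unadjusted p under 0.05. All 12 sorted libraries gave 1981 higher, array weights 2186, median-ratio factors 52, quantile normalization 51 and rescaling without mitochondrially encoded and histone genes 100. No filter gave 284 and 11, a mean of at least 1 TPM 47 lower, no trend 30 and 2, recovered reads 188 and 344, and a slope over S1 to S4 46 lower. All gene classes on the deposited scale gave 0 and 0 (983 at an unadjusted p under 0.05), replicate 2 alone 45 and 10, replicate 3 alone 1 and 0 (1555 at an unadjusted p under 0.05), and the mitochondrial mRNA level as a further term 0 and 0 (607). Leaving out 1 library gave 51 to 2360 higher and 4 to 130 lower. Of 98 called genes named in the text, 94 kept their direction in every fit and 24 passed in every fit that left out 1 library.

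Directions that turned were, with quantile normalization, ALB 0.215, AFP 0.61, APOA1 0.355 and MT-CO1 0.0; on recovered reads RRM2 -0.028 and H4C3 -0.048; in replicate 2 alone CDC6 0.006, SLBP 0.138 and TMEM14C 1.053; in replicate 3 alone RRM2 -0.094 and H4C3 -0.119. With the mitochondrial term they were CDC6 0.017, SLBP 0.194, ALB 0.026, MT-CO1 0.077, MT-CO3 0.156, MT-ATP8 0.001, MYC -0.085 and TMEM14C 1.583. Without 1 library RRM2 ran from -0.017 to 0.387 and TMEM14C from -0.695 to 0.025. The cause was not tested. With 2 libraries per fraction, small differences were not detectable.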
